A study of Homo sapiens with 27 samples.

Results

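The genes of the mitochondrial ribosomal proteins (MRP genes) were followed by RNA sequencing in 27 libraries of ARID1A knockout cells. Members were the gene rows whose symbol is MRPL or MRPS with a number and, in some, a letter from A to C. Each set of counts has 67130 gene rows. Such a symbol was carried by 88 of them, which stood for 78 genes. The other 10 rows repeated symbols of these genes at loci outside the primary assembly and held no counts. All 78 genes passed the filter on low counts in both cell lines.

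Mitochondrial ribosomes translate the few messages encoded in mitochondrial DNA, all of them subunits of the respiratory chain and the ATP synthase. Their RNA comes from mitochondrial DNA, while every protein is made from nuclear genes in the cytosol and imported. Many of these proteins have a counterpart in bacterial ribosomes, and others are found only in mitochondria. Among the 78 genes, 30 encode large subunit proteins with a bacterial counterpart and 21 encode large subunit proteins specific to mitochondria. A further 16 encode small subunit proteins with a bacterial counterpart and 10 encode small subunit proteins specific to mitochondria. MRPS36 keeps its symbol, although later work places its product in the 2-oxoglutarate dehydrogenase complex.

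ARID1A encodes a DNA-binding subunit of BAF, the SWI/SNF complex that remodels chromatin. Every library carries the ARID1A knockout. In 293T, an embryonic kidney line, cells with lentiviral Flag-tagged ARID1A in the forms K2025E, G2087R, G2087E, V2084D or WT stood beside knockout cells with no ARID1A added (KO). In Huh7, a hepatocellular carcinoma line, cells with V2084D and a knockdown of STUB1 (V2084D + shSTUB1), with V2084D alone and with WT were sequenced, with no KO group. STUB1, also called CHIP, is a ubiquitin ligase that acts on clients of heat shock protein chaperones. Each of the 9 groups held 3 libraries. The labels name neither the promoter of the lentiviral gene nor clones, pools or separate cultures. The p-values therefore measure the spread between these samples, which may be technical, and a clone used for 1 group cannot be told apart from its genotype. The treatment text of the labels names Huh7 for the 293T samples as well.

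Some libraries stood apart from their groups, and some went against their labels. Totals ran from 33429483 to 55539529 counts in 293T and from 59124374 to 79915177 in Huh7. On the first principal component of the 293T libraries, K2025E replicates 2 and 3 lay at -104.3 and -66.6, against -7.45 for K2025E replicate 1. KO lay at 18.2 to 38.9. The WT libraries were spread, with replicates 1 to 3 at -40.2, -2.62 and 29.45. G2087R replicate 3 lay at 39.8, against -17.1 and -14.8 for replicates 1 and 2. ARID1A itself was at 291 and 324 CPM (counts scaled to a common library size with TMM) in G2087R replicates 1 and 2 and at 68170 CPM in replicate 3, against 117 to 193 CPM in KO. In Huh7, where every library is labelled as overexpressing ARID1A and no KO library is at hand, it was at 290.4, 189.3 and 351.2 CPM in V2084D + shSTUB1, 268.4, 271.1 and 215.7 CPM in V2084D and 342.2, 365.9 and 399.9 CPM in WT. V2084D lay below WT without overlap, and all 9 were far below the 5690 CPM of the lowest 293T WT library. The 293T WT libraries themselves had 5690, 9285 and 62920 CPM of ARID1A. It was at 13370 to 21660 CPM in 293T K2025E, 43790 to 84610 CPM in G2087E and 42660 to 114800 CPM in V2084D. The 293T groups thus differed in the level of added ARID1A as well as in its form. In Huh7, STUB1 was at 70.1, 84.1 and 67.2 CPM in V2084D + shSTUB1, against 251.3, 247.8 and 296.2 CPM in V2084D. Of 12 liver markers, 3 reached a mean of 10 CPM or lay next to it under both labels, with CPS1 at 26.7 CPM in Huh7 and 36.3 CPM in 293T, GPC3 at 19.4 and 10.3 CPM and FOXA1 at 13.3 and 9.81 CPM. The libraries labelled Huh7 had means of 0.631 CPM for albumin (ALB), 0.0121 CPM for AFP and 0.0931 CPM for HNF4A. Of 6 markers of 293 cells, 4 reached 10 CPM in the libraries labelled Huh7, namely MAP1B (95.8 CPM in Huh7 and 50.4 CPM in 293T), LIN28B (61.8 and 92.4 CPM), INA (41.7 and 33.1 CPM) and PAX2 (12.1 and 5.62 CPM). The markers thus do not bear out the liver label, and Huh7 stands in what follows for the libraries so labelled. Of the fibroblast collagen genes, COL1A1 averaged 40.2 CPM in Huh7 and 46.4 CPM in 293T, and COL3A1 43.3 and 1.23 CPM, while the leukocyte marker PTPRC and the keratinocyte markers KRT5 and KRT14 stayed below 10 CPM in both. The part of these features in the results below was not tested.

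MRP genes were expressed at moderate levels with little difference between libraries labelled Huh7 and 293T. Single genes ran from 8.64 to 465.7 CPM over all libraries, the lowest count of any gene in any library was 380, and the median gene stood at 65.5 CPM in Huh7 and 67.6 CPM in 293T. Per kilobase of coding transcript, 77 of 78 genes lay within 2-fold of each other between the lines, and the Spearman correlation of these levels was 0.902 over 78 genes, which share the same libraries within a line. The highest levels per kilobase in Huh7 belonged to MRPL37 (279 ± 23.5 CPM per kb), MRPL51 (269 ± 32.9) and MRPL3 (223 ± 28.9; SD over 9 libraries each). In 293T they belonged to MRPL51 (269 ± 97.3 CPM per kb), MRPL49 (257 ± 30.2) and MRPL12 (207 ± 77.8; SD over 18 libraries each). MRPL37 and MRPL51 in Huh7, and the 3 genes named for 293T, differed by less than the larger of their SDs. MRPL3 in Huh7 lay below both others by more than its SD. These SDs pool the groups of a line, and the genes share libraries, so the SDs cannot settle the order of the genes. MRPS36 was lowest in both lines, at 12.2 ± 3.52 CPM per kb in Huh7 and 9.997 ± 1.93 CPM per kb in 293T, next to MRPL50 at 12.9 ± 1.36 and 15.3 ± 2.82 CPM per kb. The third lowest was MRPL57 in Huh7, at 16.6 ± 6.04 CPM per kb, and MRPL22 in 293T, at 15.6 ± 3.87 CPM per kb. These are levels, and they depend on the transcript length taken from the annotation.

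Summed over all 78 genes, the TMM-scaled level was lower in KO than in every other 293T library, and lower in Huh7 V2084D than in Huh7 WT. The other 293T groups overlapped, apart from K2025E, which lay above G2087R and V2084D. The sum was 8100 ± 1420 CPM in K2025E, 5900 ± 157 in G2087R, 6120 ± 374 in G2087E, 6010 ± 415 in V2084D and 6650 ± 816 in WT, against 4970 ± 202 CPM in KO (SD, n = 3 each). The single KO libraries had 5074, 5108 and 4742 CPM. Each of the 15 libraries labelled as having ARID1A added lay above all of them, the lowest being V2084D replicate 2 at 5532 CPM. The full separation depends on the TMM scaling. As a share of raw counts, MRP genes made up 0.5548% in V2084D replicate 2 and 0.5551% in KO replicate 2. G2087R replicates 1 and 2, whose ARID1A was close to KO, had 5808 and 5811 CPM. K2025E was uneven, with 6471, 9060 and 8777 CPM. In Huh7 the sum was 6110 ± 530 CPM in V2084D + shSTUB1, 5280 ± 354 CPM in V2084D and 6640 ± 83.4 CPM in WT. The highest V2084D library, at 5682 CPM, lay below the lowest WT library, at 6539 CPM, whereas V2084D + shSTUB1 overlapped with both groups at 5990, 6695 and 5657 CPM. In bulk RNA a higher sum from more cells of 1 kind and from more RNA per cell cannot be told apart.

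**Figure D1:**
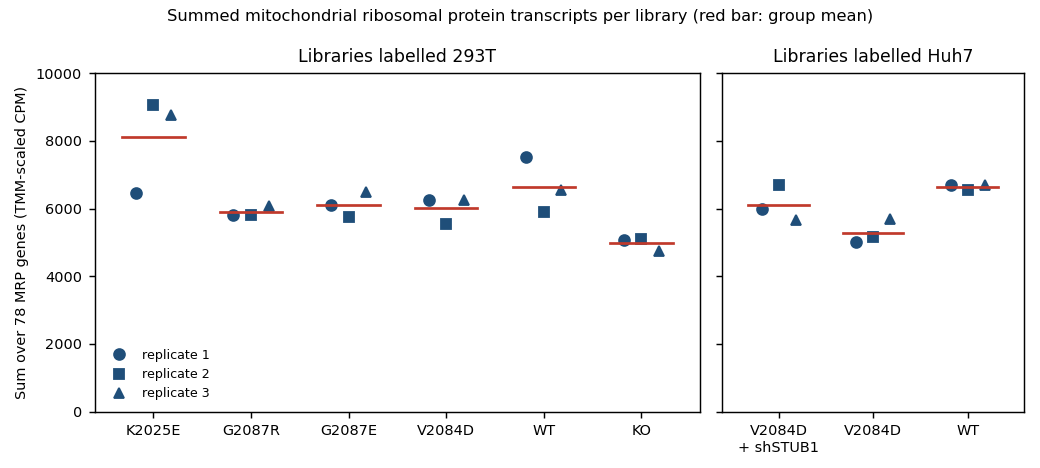
Sum of TMM-scaled CPM over the 78 MRP genes (vertical axis, from 0) in each library, by group, with 293T on the left and Huh7 on the right. Points are libraries, marked by replicate number, and red bars are group means. The KO libraries sit between 4742 and 5108 CPM, below all others labelled 293T, and the Huh7 V2084D libraries sit between 5004 and 5682 CPM, below all 3 Huh7 WT libraries.

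The mutant V2084D against WT in Huh7 asks how transcripts differ with this missense form. MRP transcripts were lower in V2084D. Of the 78 genes, 48 fell and 2 rose, that is 61.5% lower and 2.56% higher, at an adjusted p below 0.05 in edgeR's quasi-likelihood test. Of all 22510 genes tested in this comparison, 20% were called lower and 22% higher. The median log2 difference was -0.34 over the 78 genes and 0.03 over all genes. The libraries of both groups did not overlap for 54 genes that were lower and 4 that were higher in V2084D, against 26.9% and 28.5% of all genes. All 4 structural classes took part. Among genes with a bacterial counterpart, 19 of 30 of the large and 10 of 16 of the small subunit fell. Among genes specific to mitochondria, 14 of 21 of the large and 4 of 10 of the small subunit fell, and 1 of each rose. MRPS36 fell as well. The 48 genes that fell had a median GC content of 51.26% and a median coding transcript of 1022.75 bases. The 30 others had 44.89% and 1048.5 bases.

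MRPL20, which in bacteria is an RNA-binding protein of early large subunit assembly, showed the largest fall. The gene lies on chromosome 1 (GRCh38, 1401908 to 1407313, minus strand). Its V2084D libraries had 21.6, 25.9 and 29.8 CPM, against 86.0, 85.8 and 81.1 CPM in WT. The groups lay far apart, and the log2 difference was -1.71 (SE 0.11, adjusted p = 1.57e-06, edgeR). MRPL57, a large subunit protein specific to mitochondria, had 20.7, 24.4 and 24.7 CPM in V2084D, against 52.9, 54.1 and 55.2 CPM in WT (log2 difference -1.22, SE 0.08, adjusted p = 1.57e-06, edgeR). For MRPS12, a protein of the decoding centre, V2084D had 36.4, 40.6 and 42.4 CPM, against 87.7, 78.7 and 85.7 CPM in WT. MRPS2, a small subunit protein with a bacterial counterpart, stood at 102.0, 109.2 and 114.9 CPM in V2084D, against 217.2, 217.5 and 231.0 CPM in WT. In both genes every V2084D library was below every WT library, at log2 differences of -1.08 (SE 0.09, adjusted p = 8.24e-06) and -1.03 (SE 0.07, adjusted p = 1.65e-06) by edgeR's quasi-likelihood test. Large falls without overlap also came from MRPS36 (-0.95), MRPL27 (-0.91), which lies near the catalytic centre in bacterial ribosomes, MRPL46 (-0.91), MRPS7 (-0.88) of the small subunit head, MRPL16 (-0.88), MRPS15 (-0.87) and MRPL4 (-0.85), a protein of the exit tunnel in bacteria. SEs of these 7 log2 differences lay between 0.08 and 0.11.

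Genes of proteins at named functional sites are given next, with no test between them. MRPL58, a peptidyl-tRNA hydrolase built into the large subunit, fell by 0.70 on the log2 scale (SE 0.07, adjusted p = 2.59e-05, edgeR). MRPL45, which lies at the exit site facing the inner membrane, fell by 0.49 (SE 0.10, adjusted p = 0.00227), and MRPL11, of the stalk base, fell by 0.41 (SE 0.08, adjusted p = 0.00243), both in edgeR. The stalk protein MRPL12 had 155.7, 184.4 and 222.3 CPM in V2084D, against 225.0, 218.9 and 235.1 CPM in WT, and MRPL10, which anchors the stalk, averaged 77.1 CPM in V2084D and 76.2 CPM in WT. Neither stalk gene passed the test (log2 differences -0.27 and 0.02, adjusted p = 0.128 and 0.843, edgeR).

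The 3 MRPS18 genes encode paralogous proteins that occupy different places, MRPS18A in the large subunit and MRPS18B and MRPS18C in the small one. They went apart in Huh7. MRPS18A had 20.8, 22.0 and 24.2 CPM in V2084D, against 46.0, 47.4 and 54.9 CPM in WT (log2 difference -1.15, SE 0.09, adjusted p = 5.53e-06, edgeR). MRPS18B rose, with 108.9, 111.1 and 118.2 CPM in V2084D, against 79.1, 82.1 and 80.3 CPM in WT (0.49, SE 0.07, adjusted p = 0.000311, edgeR). MRPS18C overlapped, with 46.0, 44.7 and 57.3 CPM in V2084D, against 48.5, 46.0 and 47.8 CPM in WT (0.06, SE 0.10, adjusted p = 0.706, edgeR). The difference between paralogs was not tested. The other gene that rose, MRPL42, had 150.4, 148.9 and 140.7 CPM in V2084D, against 124.9, 123.5 and 98.9 CPM in WT (0.34, SE 0.11, adjusted p = 0.026, edgeR). With offsets for GC content and transcript length its difference was 0.11 and missed the threshold.

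**Figure D2:**
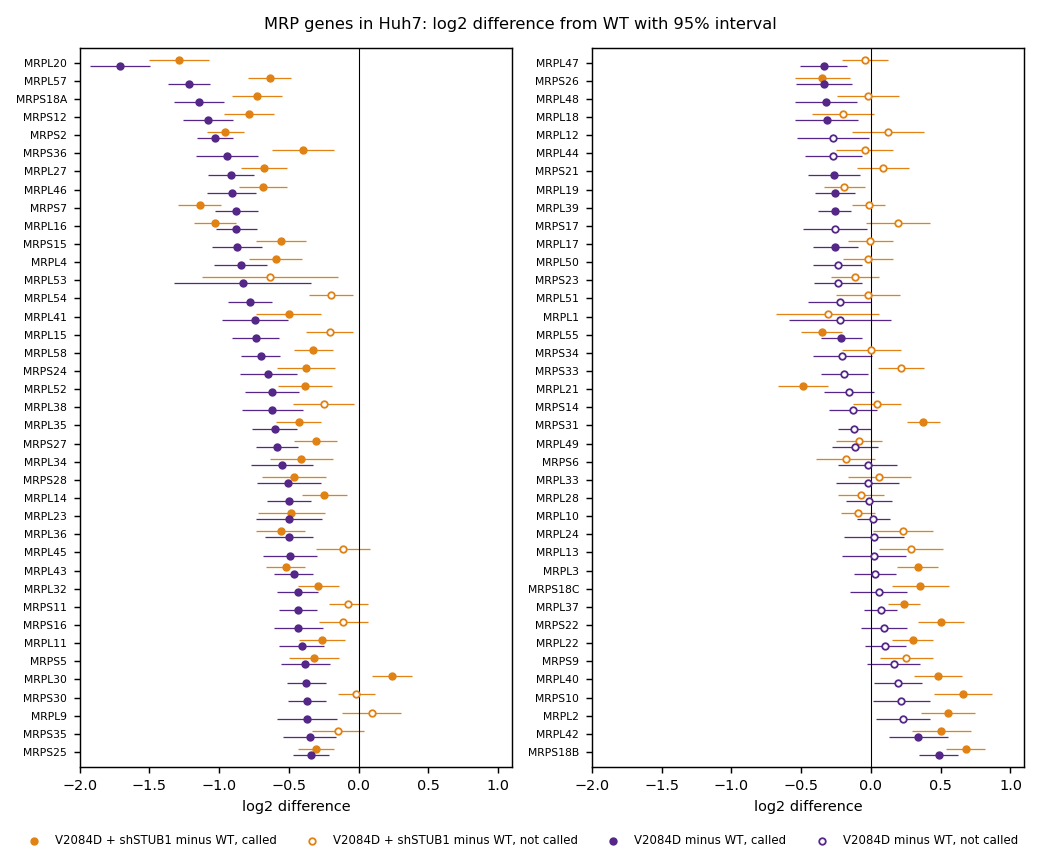
Log2 difference from WT for each of the 78 MRP genes in Huh7, for V2084D + shSTUB1 (orange, upper point) and V2084D (purple, lower point). Lines are approximate 95% intervals from the SE and a normal distribution, and are somewhat narrower than the test would give. Filled points passed the test and open points did not. The left column holds the 39 genes with the most negative V2084D values, led by MRPL20 at -1.71, and the right column ends with MRPS18B at 0.49. Both differences use the same WT libraries.

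Knockdown of STUB1 in V2084D cells asks whether the ubiquitin ligase bears on the state of these cells. The sample titles name no control hairpin for V2084D alone. Effects of the hairpin or its delivery therefore cannot be told apart from loss of STUB1. More MRP transcripts were higher than lower with the knockdown, and most did not pass the test. In V2084D + shSTUB1 against V2084D, 29 of 78 genes rose (37.2%) and 2 fell (2.56%), where 10.8% of the 22510 genes tested were called higher and 10.8% lower. The median log2 difference was 0.23 over the 78 genes and 0.00 over all genes. Higher genes made up 8 of 30 and 7 of 16 of those with a bacterial counterpart in the large and the small subunit. Among genes specific to mitochondria they made up 9 of 21 and 4 of 10. The differences were small, from 0.24 to 0.61 on the log2 scale. The count rested on few libraries, since it was 13 without V2084D replicate 1, 16 without V2084D replicate 2 and 17 without V2084D + shSTUB1 replicate 1, against 31 in all.

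MRPL30, a large subunit protein with a bacterial counterpart, had the largest rise. It stood at 126.7, 142.7 and 124.2 CPM in V2084D + shSTUB1, against 87.0, 84.6 and 85.8 CPM in V2084D (log2 difference 0.61, SE 0.07, adjusted p = 0.000394, edgeR). MRPL57 had 33.8, 36.9 and 33.5 CPM in V2084D + shSTUB1, against 20.7, 24.4 and 24.7 CPM in V2084D (0.58, SE 0.08, adjusted p = 0.000752, edgeR). No library of one group reached those of the other in either gene. MRPL54 rose by a log2 difference of 0.58, MRPS36 by 0.55, MRPL15 by 0.53 and MRPS31 by 0.49, with adjusted p from 0.000518 to 0.00671 in edgeR's quasi-likelihood test. MRPL20 also rose, to 36.0, 36.3 and 31.4 CPM in V2084D + shSTUB1, against 21.6, 25.9 and 29.8 CPM in V2084D (0.42, SE 0.11, adjusted p = 0.0189, edgeR). MRPS7 and MRPL21 went the other way. MRPS7 had 54.4, 61.7 and 51.6 CPM in V2084D + shSTUB1, against 63.9, 67.5 and 69.7 CPM in V2084D (-0.26, SE 0.08, adjusted p = 0.037, edgeR), and it missed the threshold under 8 of the alternatives run. MRPL21 had 52.1, 60.6 and 54.2 CPM, against 63.4, 67.6 and 78.7 CPM in V2084D (-0.33, SE 0.09, adjusted p = 0.028, edgeR), and missed it under 6.

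Set against WT, V2084D + shSTUB1 showed differences in both directions. Here 31 genes fell (39.7%) and 12 rose (15.4%), where 21.7% of all genes tested were called lower and 23.5% higher. The median log2 difference over the 78 genes was -0.16, beside 0.02 over all genes. With offsets for GC content and transcript length the split was 38 lower and 7 higher. The 3 Huh7 comparisons share libraries, so their values are given side by side. MRPL20 differed from WT by a log2 of -1.29 (SE 0.11) in V2084D + shSTUB1 and -1.71 in V2084D, and MRPL57 by -0.64 (SE 0.08) and -1.22. For MRPS7 the values were -1.14 (SE 0.08) in V2084D + shSTUB1 and -0.88 in V2084D, for MRPL16 -1.03 (SE 0.08) and -0.88, and for MRPS2 -0.96 (SE 0.07) and -1.03. MRPL16 had 45.5, 49.3 and 41.9 CPM in V2084D + shSTUB1, 49.1, 48.9 and 54.2 CPM in V2084D and 93.1, 93.6 and 92.5 CPM in WT, so both V2084D groups lay well below WT. All of these differences passed the test (adjusted p from 2.01e-06 to 7.08e-05 in edgeR for V2084D + shSTUB1).

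Among the genes above WT, MRPS18B had 130.2, 137.7 and 118.7 CPM in V2084D + shSTUB1, against 79.1, 82.1 and 80.3 CPM in WT (log2 difference 0.68, SE 0.07, adjusted p = 2.82e-05, edgeR). MRPS10, a small subunit protein with a bacterial counterpart, had 65.04, 69.32 and 56.46 CPM, against 45.2, 41.2 and 34.3 CPM in WT (0.66, SE 0.11, adjusted p = 0.000478, edgeR). MRPL2, a core large subunit protein, had 102.0, 114.6 and 99.6 CPM, against 70.9, 68.7 and 76.0 CPM in WT (0.55, SE 0.10, adjusted p = 0.00099, edgeR). None of these 3 genes overlapped between the groups. The rises of MRPL30 (0.24) and MRPS18C (0.35) against WT turned to -0.07 and -0.04 with GC and length offsets, so their direction depends on that setting.

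The test of the difference between the lines, V2084D minus WT in Huh7 less the same in 293T, called 8 of 78 genes lower (10.3%) and 0 higher, where 4.21% of the 24546 genes in the joint fit were called lower and 5.5% higher. At an unadjusted p below 0.05, 15 were lower and 2 higher, against 10.3% and 13.1% of all genes. The genes called were MRPL20, MRPS2, MRPS18A, MRPL15, MRPS7, MRPS15, MRPL16 and MRPS27. For MRPL20 the difference of differences was -1.48 (SE 0.24, adjusted p = 0.000337, edgeR). For MRPS2 it was -1.03 (SE 0.22, adjusted p = 0.00314, edgeR). The line is also a difference of count table and of depth, and these cannot be told apart here. With GC and length offsets 16 genes were called, and with DESeq2 13.

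In 293T, the return of WT ARID1A to knockout cells asks which transcripts follow the gene. No MRP gene was called in WT against KO, nor was any other gene (0% of the 23201 genes tested in edgeR's quasi-likelihood test, 1 MRP gene and 81 genes in all in DESeq2). At an unadjusted p below 0.05, 36 of the 78 genes were higher and 0 lower in WT, against 6.52% and 4.44% of all genes. The libraries did not overlap for 36 genes higher and 0 lower in WT, against 8.93% and 8.59% of all genes. The median log2 difference was 0.45 over the 78 genes and 0.01 over all genes, and without WT replicate 1 it was 0.31. MRPL54, a large subunit protein specific to mitochondria, had the smallest p, with 28.9, 19.6 and 20.7 CPM in WT, against 12.3, 11.4 and 12.7 CPM in KO (0.92, SE 0.21, adjusted p = 0.343, edgeR). MRPL17, MRPS12 and MRPL37 came next, at log2 differences of 0.64, 0.86 and 0.53, with the same adjusted p.

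The mutants V2084D, G2087E and G2087R against KO gave 0 called MRP genes each (0% of all genes called). Their median log2 differences over the 78 genes were 0.27, 0.28 and 0.21. At an unadjusted p below 0.05, 6 MRP genes were higher in V2084D, 14 in G2087E and 9 in G2087R, where 2.65%, 3.1% and 2.36% of all genes were higher. No MRP gene was lower at that p, where 2.18%, 2.56% and 1.96% of all genes were. DESeq2 called 0 as well in each. These comparisons and that of WT share the KO libraries, so a low KO library touches all of them. MRPL54 and MRPL17 were again among the 4 genes with the smallest p in each. MRPL54 had 18.6, 17.2 and 16.4 CPM in G2087R, 20.1, 17.2 and 18.6 CPM in G2087E and 18.8, 14.6 and 19.4 CPM in V2084D, all above the 3 KO libraries. MRPS2 had 311.6, 327.9 and 246.4 CPM in G2087R and 318.2, 266.3 and 292.9 CPM in G2087E, against 177.7, 193.6 and 219.7 CPM in KO. V2084D overlapped with KO for MRPS2, at 294.7, 214.2 and 343.8 CPM. Without G2087R replicates 1 and 2, which had ARID1A near the KO level, the median for G2087R was 0.29.

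K2025E against KO was the 293T comparison with MRP calls. Here 49 of 78 genes rose (62.8%) and 0 fell, where 7.17% of all genes tested were called higher and 5.72% lower. At an unadjusted p below 0.05, 62 were higher and 0 lower, against 14.4% and 13.9% of all genes. The median log2 difference was 0.72 over the 78 genes and -0.03 over all genes. Higher genes made up 19 of 30 and 11 of 16 of those with a bacterial counterpart in the large and small subunits, and 14 of 21 and 5 of 10 of those specific to mitochondria. The call depends on 2 libraries that stood apart. Without K2025E replicate 2 the count was 0 (median 0.63), without replicate 3 it was 16 (median 0.60), and without both it was 0 (median 0.40), the lone K2025E library then being assumed to vary like the other groups. It was 22 without KO replicate 1 and 21 without KO replicate 2. Over all genes the count of calls was 1 without K2025E replicate 2, against 2989 with all libraries.

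MRPL53, on chromosome 2 (GRCh38, 74471958 to 74473322, minus strand), encodes a large subunit protein specific to mitochondria. It had the largest rise, with 25.7, 55.4 and 39.5 CPM in K2025E, against 15.92, 12.94 and 13 CPM in KO (log2 difference 1.53, SE 0.32, adjusted p = 0.00844, edgeR). Without K2025E replicates 2 and 3 its difference was 0.88. MRPL54 had 20.8, 40.0 and 34.5 CPM, against 12.3, 11.4 and 12.7 CPM in KO (1.39, SE 0.22, adjusted p = 0.00674, edgeR). MRPL41, also specific to mitochondria, had 59.5, 158.8 and 71.8 CPM, against 34.9, 38.7 and 42.9 CPM in KO (1.32, SE 0.39, adjusted p = 0.0328, edgeR). In all 3 genes every K2025E library was above every KO library, and replicate 2 was the highest. MRPL12, of the stalk, had 230.8, 465.7 and 301.8 CPM, against 145.9, 145.5 and 148.1 CPM in KO (1.18, SE 0.26, adjusted p = 0.00932, edgeR). MRPS12 of the decoding centre had 46.5, 92.3 and 65.8 CPM, against 29.3, 29.8 and 33.8 CPM in KO (1.14, SE 0.25, adjusted p = 0.00966, edgeR). MRPL23 (1.27), MRPL51 (1.16), MRPS24 (1.105), MRPL55 (1.09), MRPL27 (1.04), MRPL14 (1.03) and MRPS26 (1.004) completed the 12 largest rises. The range over all 78 genes was -0.12 to 1.53. The 49 called genes had a median GC content of 53.5% and a median coding transcript of 899 bases, and the 29 others 43.3% and 1200 bases. With offsets for GC content and length the count was 64.

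**Figure D3:**
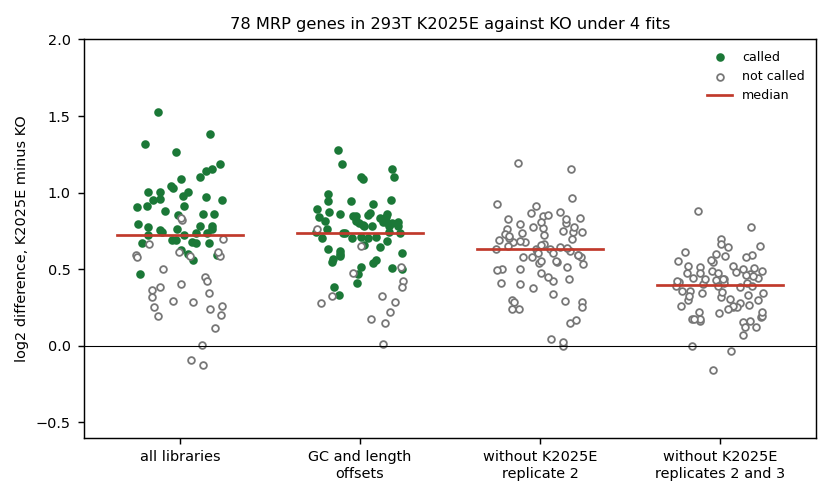
Log2 difference of K2025E minus KO in 293T for each of the 78 MRP genes (points) under 4 fits, with green points for genes that passed the test and open points for those that did not. Red bars are medians. The medians are 0.72 with all libraries, 0.74 with GC and length offsets, 0.63 without K2025E replicate 2 and 0.40 without replicates 2 and 3, where no gene passed.

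No mutant differed from WT in 293T at the threshold. K2025E, V2084D, G2087E and G2087R against WT gave 0 called MRP genes each, where 0.00431%, 0%, 0% and 0.00431% of all genes were called in edgeR's quasi-likelihood test. DESeq2 also called 0 MRP genes in each. The median log2 difference over the 78 genes was 0.30 for K2025E, -0.18 for V2084D, -0.10 for G2087E and -0.20 for G2087R. At an unadjusted p below 0.05, 15 MRP genes were higher and 0 lower in K2025E (3.31% and 4.97% of all genes). For V2084D 0 were higher and 1 lower (0.914% and 1.1% of all genes), for G2087E 0 and 0 (0.849% and 1.2%), and for G2087R 0 and 0 (2.11% and 2.34%). The lower gene in V2084D was MRPL53, at 16.5 CPM in V2084D and 27.5 CPM in WT on average. For K2025E the smallest p belonged to MRPL11 (0.50), MRPL51 (0.58), MRPL52 (0.49) and MRPS5 (0.40), with SEs from 0.16 to 0.20. Their libraries overlapped between K2025E and WT. Without K2025E replicates 2 and 3 the median for K2025E was -0.02.

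**Figure D4:**
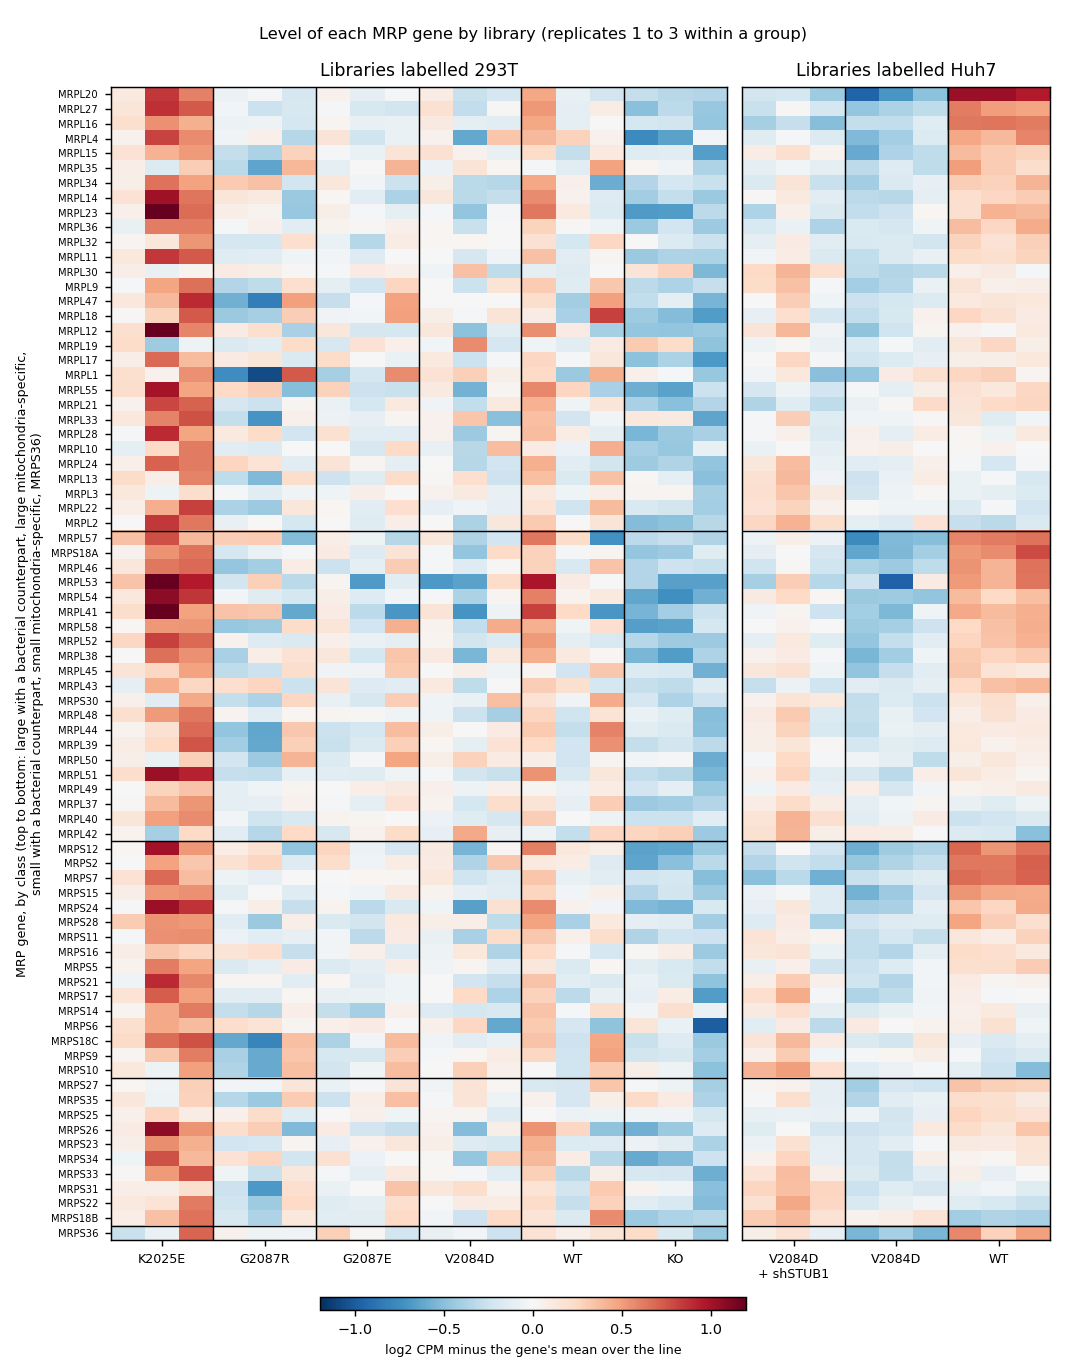
Level of each of the 78 MRP genes in each of the 27 libraries, as log2 CPM less the gene's mean over the libraries of its line (colour, red above and blue below the mean). Rows are grouped by class and columns by group, with replicates 1 to 3 from left to right within a group. K2025E replicates 2 and 3 and Huh7 WT stand out in red, and KO and Huh7 V2084D in blue.

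The genes called in Huh7 and in 293T were compared, since these comparisons share no library. Of the 48 genes lower in Huh7 V2084D than in WT and the 49 higher in 293T K2025E than in KO, 33 were on both lists, which is 68.8% of the Huh7 list and 67.3% of the K2025E list. Each list holds over 60% of the 78 genes, so a large shared part follows from their size. In 9 genes no comparison gave a call.

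The promoters of the genes were read for what the members share beyond their names. A promoter of 250 bases before to 50 bases after the transcript start was found in RefSeq (build GRCh38.p14) for 69 of the 78 genes. The motif CCGGAAG, bound by ETS factors such as GABP, was present on either strand in 29 of them (42%), against 10.7% of 27305 promoters and 14.2% of 15842 protein-coding ones. AAGATGGCG, bound by YY1, was in 13 (18.8%), against 1.85% of all and 2.74% of coding promoters. The NRF1 motif, GCGC and TGCGC with 1 free base between them, was in 8 (11.6%), against 6.28% and 8.57%. At least 1 of the 3 motifs was in 62.3% of the MRP promoters, against 17% of all and 22.8% of coding promoters. Only exact letters were counted. The ETS motif ends in the AAG that opens the YY1 motif, so 1 stretch can hold both, and a match does not show that a factor binds. The share with the ETS motif was 39.5% among 43 genes lower in Huh7 V2084D and 50% among 24 genes not called. In 293T K2025E against KO it was 45.5% among 44 genes that rose and 36% among 25 not called. The YY1 motif was in 18.6% of the genes lower in Huh7 V2084D and 12.5% of those not called, and in 18.2% of those higher in K2025E and 20% of those not called. The NRF1 motif was in 14% and 8.33%, and in 11.4% and 12%. These shares were not tested. Both genes that rose in V2084D held the YY1 motif. The windows of MRPL20 and MRPS12, which fell and hold an ETS motif, of MRPL46, which fell and holds a YY1 motif, and of MRPS18B, which rose and holds one, are shown 5′ to 3′ on the strand of the gene, with the motif in capitals. MRPL20 is at chr1:1407244-1407543 on the minus strand, MRPS12 at chr19:38930694-38930993 on the plus strand, MRPL46 at chr15:88467339-88467638 on the minus strand and MRPS18B at chr6:30617590-30617889 on the plus strand.
MRPL20: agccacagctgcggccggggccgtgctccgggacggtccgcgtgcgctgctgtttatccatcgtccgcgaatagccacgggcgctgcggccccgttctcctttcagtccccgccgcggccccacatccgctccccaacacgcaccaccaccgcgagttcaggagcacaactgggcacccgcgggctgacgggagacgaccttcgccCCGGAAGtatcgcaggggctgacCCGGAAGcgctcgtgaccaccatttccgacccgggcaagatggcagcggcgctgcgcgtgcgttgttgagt
MRPS12: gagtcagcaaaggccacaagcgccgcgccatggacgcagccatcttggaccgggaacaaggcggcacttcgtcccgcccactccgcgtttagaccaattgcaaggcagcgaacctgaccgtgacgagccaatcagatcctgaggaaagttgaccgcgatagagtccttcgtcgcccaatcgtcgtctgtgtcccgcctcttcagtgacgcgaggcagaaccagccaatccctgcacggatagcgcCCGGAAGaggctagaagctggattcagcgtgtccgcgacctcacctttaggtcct
MRPL46: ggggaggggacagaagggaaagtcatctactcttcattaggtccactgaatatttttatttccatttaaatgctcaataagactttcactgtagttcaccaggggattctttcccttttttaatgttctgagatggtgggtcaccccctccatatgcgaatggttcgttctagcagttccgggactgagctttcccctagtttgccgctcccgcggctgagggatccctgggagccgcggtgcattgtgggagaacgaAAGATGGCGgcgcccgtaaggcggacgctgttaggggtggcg
MRPS18B: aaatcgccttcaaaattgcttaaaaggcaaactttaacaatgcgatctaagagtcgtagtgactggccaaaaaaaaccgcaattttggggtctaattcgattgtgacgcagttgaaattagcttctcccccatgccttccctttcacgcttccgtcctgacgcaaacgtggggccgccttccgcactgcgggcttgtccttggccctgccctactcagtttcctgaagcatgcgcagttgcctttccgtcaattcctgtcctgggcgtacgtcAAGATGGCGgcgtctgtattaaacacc
MRPL20 carries the ETS motif at 2 places, in MRPS12 it lies across the transcript start, and in MRPL46 and MRPS18B the YY1 letters lie past the start.

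Many MRP genes start close to a second gene that runs the other way. In GENCODE 29 (GRCh38), 21 members had such a partner, with starts at most 1000 bases apart or overlapping by at most 300, in 22 pairs. In Huh7 V2084D against WT, 10 partners fell (45.5%) and 2 rose (9.09%), where 20% of all genes were lower and 22% higher, with a median log2 difference of -0.27 beside -0.44 for the members themselves. MRPL46 and MRPS11 are partners of each other and so make up 2 of these 10, with starts 34 bases apart. MRPL46 had 27.55, 26.45 and 29.02 CPM in V2084D, against 52.0, 47.7 and 56.3 CPM in WT. MRPS11 had 55.8, 59.0 and 56.1 CPM in V2084D, against 75.2, 73.0 and 82.9 CPM in WT. Both fell, at -0.91 and -0.44, without overlap of the groups. Picked after their values were seen, MRPL27 and MRPS27 fell by 0.91 and 0.58 on the log2 scale, while their partners EME1, a DNA repair nuclease subunit, and PTCD2, a mitochondrial RNA-binding protein, rose by 0.54 and 0.53. In K2025E against KO, 5 partners rose (22.7%) and 0 fell, where 7.17% of all genes were higher. Of the 5, MRPL46 and MRPS11 are MRP genes, and the others are IGHMBP2, NDUFS6 and FAU.

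The annotation limits how well some members can be told from neighbours. Exons of 41 members overlap those of another gene, 16 of them on the same strand, and the strand setting of the counting is not given in the sources used here. In 8 members at least 30% of the exon length is shared. MRPL53 shares 45.2% with CCDC142 on the same strand (37.1 CPM on average), MRPL51 shares 31.3% with NCAPD2 on the opposite strand (296.3 CPM), and MRPL12 shares 68.2% with a gene at 0 CPM. MRPS18A shares 47% with RSPH9 (0.833 CPM) and MRPS18C 40.2% with ABRAXAS1 (9.07 CPM), both on the opposite strand. MRPS12 shares 16.3% with SARS2 on the opposite strand (40.1 CPM). Values of these genes are therefore uncertain.

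The other parts of the mitochondrial translation apparatus were read beside the MRP genes. DAP3, PTCD3, AURKAIP1, CHCHD1 and GADD45GIP1 encode mitochondrial ribosome proteins under other symbols. A gene said to lead a list had one of the smallest adjusted p in it, not always the largest difference. In Huh7 V2084D against WT, where 20% of all genes tested were called lower and 22% higher, 4 of these 5 fell and 1 rose. AURKAIP1, of the small subunit, fell most, to 37.0 CPM in V2084D, against 111 CPM in WT on average (-1.59, SE 0.14, adjusted p = 1e-05, edgeR). DAP3, a GTP-binding small subunit protein, rose to 166 CPM in V2084D, against 121 CPM in WT (0.47, SE 0.09, adjusted p = 0.00175, edgeR). Of 25 assembly and rRNA modification factors 15 fell and 4 rose, led by RPUSD4 (-0.93), MRM1 (-1.55) and NOA1 (-0.76). Of 22 translation factors 11 fell and 0 rose, led by TRMU (-0.98), which modifies mitochondrial tRNA, PTRH2 (-0.78) and SLIRP (-1.15), an RNA-stabilising protein. Of 18 regulators of mitochondrial transcription, replication and biogenesis 14 fell and 0 rose, among them POLG (-0.71), the mitochondrial DNA polymerase, NRF1 (-0.81) and MYC (-0.60).

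In V2084D + shSTUB1 against V2084D, 0 of the 5 subunits under other symbols passed the test, and AURKAIP1 differed by 0.11. Over all genes tested there, 10.8% were called higher and 10.8% lower. Of the assembly factors 9 rose and 1 fell, led by FASTKD2 (0.45) and GTPBP10 (0.58), with METTL15 (-0.46), which methylates the small ribosomal RNA, as the one that fell. Of the translation factors 8 rose and 0 fell, led by MTO1 (0.53), MRRF (0.37) and the elongation factor GFM1 (0.38). Of the regulators 5 rose and 0 fell, led by NRF1 (0.48) and TFAM (0.44), which packages mitochondrial DNA. In 293T K2025E against KO, 3 of the 5 subunits under other symbols rose, namely GADD45GIP1 (1.36), AURKAIP1 (1.18) and CHCHD1 (1.14). There 11 assembly factors and 7 translation factors rose, among them SLIRP (1.12) and the elongation factor TUFM (0.81), and of the regulators only ESRRA (0.72) did. None of these 4 lists had a gene called lower in K2025E. Over all genes tested in K2025E against KO, 7.17% were called higher and 5.72% lower. Nearly all calls over all genes were lost without K2025E replicate 2.

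The transcripts that mitochondrial ribosomes translate also differed. In Huh7 V2084D against WT, 12 of 15 transcripts of mitochondrial DNA fell and 2 rose, where 20% of all genes were lower and 22% higher. All 12 encode proteins, and the 2 that rose are the ribosomal RNAs. MT-CYB was at 875.5 CPM in V2084D and 2082 CPM in WT (-1.25, SE 0.11, adjusted p = 7.92e-06, edgeR). MT-RNR2, the large ribosomal RNA, was at 6076 CPM in V2084D and 3567 CPM in WT (0.77, SE 0.07, adjusted p = 1.02e-05, edgeR). With V2084D + shSTUB1 against V2084D, 11 of 15 rose and 0 fell, where 10.8% of all genes were higher and 10.8% lower. MT-CO3 led (1.03), while MT-RNR2 differed by 0.06 and did not pass. In K2025E against KO, 6 fell and 0 rose, led by MT-ND4L (-1.03), where 5.72% of all genes were lower and 7.17% higher. Nearly all calls over all genes in this comparison were lost without K2025E replicate 2. All genes of mitochondrial DNA in the count table, whether tested or not, together made up 3.05 ± 0.898% of counts in K2025E and 5.16 ± 0.169% in KO (SD, n = 3 each). The single K2025E libraries had 3.293, 2.062 and 3.809%. Means of the other 293T groups were also below KO, at 3.65% in WT, 3.98% in G2087E, 3.99% in V2084D and 4.57% in G2087R.

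The proteins of the cytosolic ribosome served for comparison. In Huh7 V2084D against WT, 24 of 77 fell and 11 rose, with a median of -0.05, where 20% of all genes were lower and 22% higher. In V2084D + shSTUB1 against V2084D 3 fell and 2 rose, where 10.8% of all genes were lower and 10.8% higher. Their summed level was 73600 ± 3020 CPM in V2084D and 73500 ± 2390 CPM in WT, a pair of ranges that overlap. In 293T K2025E against KO all 77 rose, with a median of 0.98, where 7.17% of all genes were higher. Their sum was 72780, 118000 and 116700 CPM in K2025E, against 51540 to 53180 CPM in KO. The rise of MRP genes in K2025E thus came with a rise of cytosolic ribosomal proteins in the same libraries, and its relation to that was not tested. Like the MRP sum, the TMM-scaled cytosolic sum was lower in KO than in every other 293T library. The lowest of those was V2084D replicate 2 at 56130 CPM. The ratio of small to large subunit MRP sums was 0.515 ± 0.0028 in V2084D + shSTUB1, 0.518 ± 0.00472 in V2084D and 0.547 ± 0.00494 in WT of Huh7, with no overlap between WT and the others. In 293T it was 0.562 ± 0.00709 in K2025E, 0.562 ± 0.0155 in WT and 0.589 ± 0.0052 in KO, and K2025E overlapped with WT. The other 293T groups had 0.597 ± 0.0252 in G2087R, 0.58 ± 0.00629 in G2087E and 0.579 ± 0.00757 in V2084D.

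**Figure D5:**
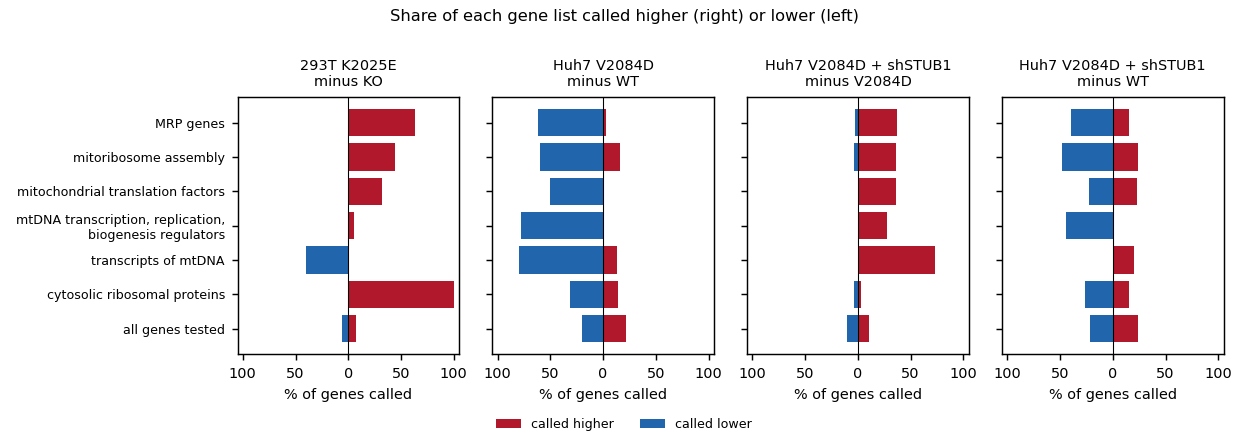
Share of each gene list called higher (red, to the right) or lower (blue, to the left) in 4 comparisons, in % of the genes tested. Rows from top to bottom are the MRP genes, 5 related lists and all genes tested. In Huh7 V2084D minus WT the MRP genes show 61.5% lower, beside 20% of all genes, and the transcripts of mitochondrial DNA show 80% lower.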

How the data were processed

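RNA-seq libraries were made with an NEBNext Ultra II kit from total RNA, per the labels' protocols. The authors deposited raw counts per gene in 2 tables, 1 for each line, from reads on GRCh38 per the submitters' processing notes, which also name edgeR without a version. Aligner, counting tool, annotation and strand setting are not given in the sources used here. All columns matched a sample by title. Levels and heat map values rest on CPM with TMM scaling, and the log CPM behind the GC and length offsets used a prior count of 2. Differences were tested with edgeR 4.0.16 in R 4.3.3 (quasi-likelihood, TMM, filterByExpr with a minimum count of 10 and total of 15), all groups of a line in 1 fit and all 9 groups in the joint fit. Calls rest on Benjamini-Hochberg adjustment and a threshold of 0.05, over all 23201 (293T), 22510 (Huh7) or 24546 (joint) genes. The SE is the absolute log2 difference over the square root of F. DESeq2 1.42.0, RLE scaling, other filters, GC and length offsets (splines with 5 degrees of freedom), a replicate block, fewer groups and left-out libraries were alternatives. Leaving out WT replicate 1 with K2025E replicates 2 and 3 was added after seeing the data. Genes were placed with GENCODE 29, and the scripts were tested on simulated data. The members, gene lists, comparisons and alternatives were chosen with earlier results of these data known. Genes were named by a rule, which took the 12 largest called differences per direction, the 4 smallest p where none was called, the 3 highest and 3 lowest levels per kilobase, a set by role and the 3 smallest adjusted p of each related list. Pairs of replicates differed over the members by a chi-square of 5.39 to 221 per degree of freedom over 27 pairs, where counting alone gives about 1, so the spread between libraries and not depth sets the precision. Same-numbered samples were checked for pairing by the correlation of their deviations. It exceeded 0.1 for every number only in 293T G2087R against WT (0.13, 0.18 and 0.32), where the block changed no MRP call.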

Additional observations from a re-analysis of the deposited data

Results flagged for a closer look

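The difference between V2084D and WT was not the same in both lines for 8 MRP genes, by the test of the difference itself in the joint edgeR fit. Each value is the log2 difference of V2084D minus WT in Huh7 less that in 293T, and each was negative. They were -1.48 for MRPL20, -1.03 for MRPS2, -0.97 for MRPS18A, -0.74 for MRPL15, -0.72 for MRPS7, -0.69 for MRPS15, -0.67 for MRPL16 and -0.60 for MRPS27. MRPL15 and MRPS27 lay closest to the threshold, with adjusted p of 0.0445 and 0.0449 in edgeR's quasi-likelihood test, and missed it under 11 and 14 of the alternatives run. The lines also differ in count table, in depth and in the level of ARID1A, and the part of these was not tested.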

How the results depend on the processing

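Counts of called MRP genes out of 78 are given with edgeR unless stated. In K2025E against KO the count was 49. It was 12 with the compared groups only, 0 without K2025E replicates 2 and 3, 0 with WT replicate 1 left out as well, and from 0 to 57 with each library left out in turn. In K2025E against WT it was 0, and 0 to 4 with each library left out. In WT against KO it was 0, but 2 with GC and length offsets together with the replicate block and 1 with DESeq2. In Huh7 V2084D + shSTUB1 against V2084D it was 31, 19 with the replicate block, 18 with the compared groups only and 13 to 39 with each library left out. The joint test between lines gave 8, 5 with no filter on low counts, 16 with GC and length offsets, 21 with those and the replicate block, 13 with DESeq2 and 4 to 10 with each library left out. With each library left out, Huh7 V2084D against WT gave 40 to 55, beside 50 with all, and V2084D + shSTUB1 against WT 37 to 50, beside 43. The replicate block, for samples that share only a number, gave 54 in K2025E against KO, 48 in Huh7 V2084D against WT, 43 in V2084D + shSTUB1 against WT and 10 in the joint test. With GC and length offsets, V2084D + shSTUB1 minus WT turned to -0.041 for MRPS18C and -0.071 for MRPL30, and to -0.037 and -0.072 with the block added. The cause was not tested. For the 72 called differences among the 12 largest per direction, 1172 values were recomputed. Of these, 1037 kept direction and side of the threshold, 131 kept direction only and 4 reversed. Differences named only by smallest p, by role or by level are not in this tally.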
